A study of Mus musculus with 9 samples.

Results

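The regions described here were open in fibroblasts and in the first week after induction of OSKM, and had no called peak at the same place once the cells expressed SSEA-1. ATAC-Seq, in which the Tn5 transposase cuts accessible chromatin, was analysed in 9 libraries of mouse embryonic fibroblasts (MEFs), with 1 library per condition and no replicates. D0 was MEFs without OSKM, D3 was unsorted, D6T- and D9T- were sorted as Thy-1-negative, D12S+ and D16S+ were sorted as SSEA-1-positive, and iPSCs were fully reprogrammed. The MEFs came from mid-gestation embryos that carry an IRES-EGFP cassette behind Oct4 (Pou5f1), and all induced cells received retroviral pMXs vectors for Oct4, Sox2, Klf4 and c-Myc. A pair of day 6 libraries, labelled as Thy-1-negative, had siRNA against H3.3 (D6 siH3.3) or a non-targeting siRNA (D6 siNT), given ahead of the infection. The level of H3.3 itself cannot be read from these files.

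Peaks of the 7 time-course libraries on chromosomes 1 to 19 were merged into 204843 regions, and a region was called in a library when a peak of that library shared at least 1 bp with it. The members were called at D0, D3 and D6T- and not called at D12S+, D16S+ or in iPSCs, while D9T- was free. This gave 15196 members, which is 7.42% of all regions and 34.8% of the 43687 regions called at all of D0, D3 and D6T- (95% Wilson interval 34.3 to 35.2, which covers the sampling of regions only). They made up 20.1% of the regions called at D0, 15.3% at D3 and 12.0% at D6T-. The members were chosen by the calls in those 6 libraries, so their presence early and absence late are a description and not a result. With 1 library per condition no test was possible, and every difference below lacks a replicate check.

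A fibroblast keeps its identity largely through enhancers, stretches of open chromatin away from promoters where transcription factors bind. AP-1, a dimer of Fos and Jun proteins, is the best known factor at fibroblast enhancers, often beside TEAD factors, which act with YAP and TAZ, and RUNX factors. Thy-1 is a surface protein that fibroblasts lose early in reprogramming, and SSEA-1 is a surface carbohydrate that cells gain on the route to pluripotency. Pluripotent cells use a different set of enhancers, which bind Oct4 and Sox2.

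The sequences of several members are given as examples. Each window below spans 200 bp around the strongest summit, on the plus strand of mm9 (NCBIM37), and capitals mark the AP-1 letters TGACTCA on either strand, so that TGAGTCA is a match on the minus strand. The first 4 windows belong to members with high levels in all 3 early libraries. They lie at chr5:98859183-98859382, in an intron of 1700007G11Rik, at chr3:45849175-45849374, 403 kb from the nearest protein-coding transcript start (Pabpc4l), at chr7:84760697-84760896, 762 kb from Ntrk3, and at chr8:73427552-73427751, 2.35 kb upstream of Mtap1s. The last of these has no AP-1 match. Over all members, 8266 (54.4%) have none in such a window. Windows with a match are thus more frequent among those printed here and below than in the group.
1700007G11Rik intron: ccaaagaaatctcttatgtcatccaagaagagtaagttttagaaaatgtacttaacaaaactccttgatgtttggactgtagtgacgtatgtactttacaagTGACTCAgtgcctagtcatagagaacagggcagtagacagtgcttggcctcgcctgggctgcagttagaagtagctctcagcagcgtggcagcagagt
Pabpc4l distal: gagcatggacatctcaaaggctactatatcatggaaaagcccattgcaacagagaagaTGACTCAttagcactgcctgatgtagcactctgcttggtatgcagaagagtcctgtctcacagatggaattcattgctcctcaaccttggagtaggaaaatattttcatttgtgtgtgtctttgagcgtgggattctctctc
Ntrk3 distal: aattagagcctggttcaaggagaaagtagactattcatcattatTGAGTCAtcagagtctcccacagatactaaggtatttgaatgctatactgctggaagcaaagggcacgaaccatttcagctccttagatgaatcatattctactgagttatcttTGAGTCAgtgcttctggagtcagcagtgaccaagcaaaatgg
Mtap1s promoter: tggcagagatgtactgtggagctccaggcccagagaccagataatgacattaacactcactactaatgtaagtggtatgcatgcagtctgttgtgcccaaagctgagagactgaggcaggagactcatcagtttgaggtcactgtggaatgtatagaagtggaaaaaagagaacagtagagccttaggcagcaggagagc

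The next windows belong to members without exon sequence in the window at genes of fibroblast programmes, each the strongest of its gene, namely Actn1 (alpha-actinin, which links actin filaments, chr12:81335342-81335541), Prrx1 (a mesenchymal homeobox factor, chr1:165203412-165203611), Smad3 (a transducer of TGF-beta signals, chr9:63525995-63526194), Itgb1 (the common beta-1 integrin subunit, chr8:131228402-131228601), Cald1 (caldesmon, an actin-binding protein, chr6:34663247-34663446) and Fosl1 (the AP-1 subunit Fra-1, chr19:5445055-5445254). The Fosl1 window lies upstream of the gene for an AP-1 subunit and holds no AP-1 match itself, but the TEAD letters GGAATG.
Actn1 intron: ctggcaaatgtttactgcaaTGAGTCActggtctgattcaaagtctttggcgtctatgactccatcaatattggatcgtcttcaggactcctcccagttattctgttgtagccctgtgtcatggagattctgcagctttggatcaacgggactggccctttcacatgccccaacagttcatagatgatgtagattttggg
Prrx1 intron: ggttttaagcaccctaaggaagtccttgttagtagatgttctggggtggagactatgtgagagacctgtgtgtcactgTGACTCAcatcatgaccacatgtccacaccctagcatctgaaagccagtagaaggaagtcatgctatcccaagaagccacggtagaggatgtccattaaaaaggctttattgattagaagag
Smad3 intron: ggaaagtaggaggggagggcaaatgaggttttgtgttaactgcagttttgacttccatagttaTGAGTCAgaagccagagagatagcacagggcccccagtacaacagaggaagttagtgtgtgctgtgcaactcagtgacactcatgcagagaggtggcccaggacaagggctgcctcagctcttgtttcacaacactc
Itgb1 intron: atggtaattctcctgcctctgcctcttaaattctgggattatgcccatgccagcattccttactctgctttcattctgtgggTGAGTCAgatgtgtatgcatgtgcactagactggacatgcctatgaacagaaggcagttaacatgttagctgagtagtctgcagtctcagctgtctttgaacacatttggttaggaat
Cald1 intron: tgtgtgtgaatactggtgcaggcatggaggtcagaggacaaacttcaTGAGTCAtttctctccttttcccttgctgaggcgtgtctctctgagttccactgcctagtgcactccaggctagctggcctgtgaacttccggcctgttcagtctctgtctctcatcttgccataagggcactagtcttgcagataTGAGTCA
Fosl1 promoter: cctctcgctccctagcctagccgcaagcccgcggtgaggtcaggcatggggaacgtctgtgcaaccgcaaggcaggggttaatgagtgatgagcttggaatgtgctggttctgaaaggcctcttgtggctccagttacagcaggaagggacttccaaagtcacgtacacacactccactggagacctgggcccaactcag

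The level of a region is its highest summit pileup, that is the count of 200 bp tags lying over the summit, given as CPM, the count scaled to the tag total of the library. Libraries held 13213117 (D9T-) to 31714845 (D0) tags. Because the peaks were called against 1 background for the whole genome, a call meant at least 7 tags at D9T- to 11 tags at D0 over at least 200 bp, which is 0.331 CPM at D3 to 0.530 CPM at D9T-. The late floors were 0.454 CPM for D12S+, 0.425 for D16S+ and 0.376 for iPSCs. Not called therefore means below that floor or shorter than 200 bp, and not closed.

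The members were of modest height. Their median level was 0.631 CPM at D0 (interquartile range 0.504 to 0.820), 0.662 at D3 (0.529 to 0.860) and 1.12 at D6T- (0.795 to 1.54). In 11788 members (77.6%) the lowest of the 3 early levels reached the highest late floor, 0.454 CPM, and in 1290 (8.49%) it reached 2 times that floor. At D6T- alone, 10067 members (66.2%) reached 2 times the floor. Most members thus had at least 1 early library below 2 times that floor.

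Regions called in all 3 early and all 3 late libraries, 16191 in number and named kept regions here, were somewhat higher than the members at D0 and more so at D3 and D6T-. Their median CPM was 0.788 (D0), 1.59 (D3) and 2.66 (D6T-). Another class, 7632 regions that were called at D12S+ and then neither at D16S+ nor in iPSCs, is named lost after D12. Its median CPM was 0.820 (D0), 1.12 (D3), 2.15 (D6T-) and 0.738 (D12S+).

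**Figure D1:**
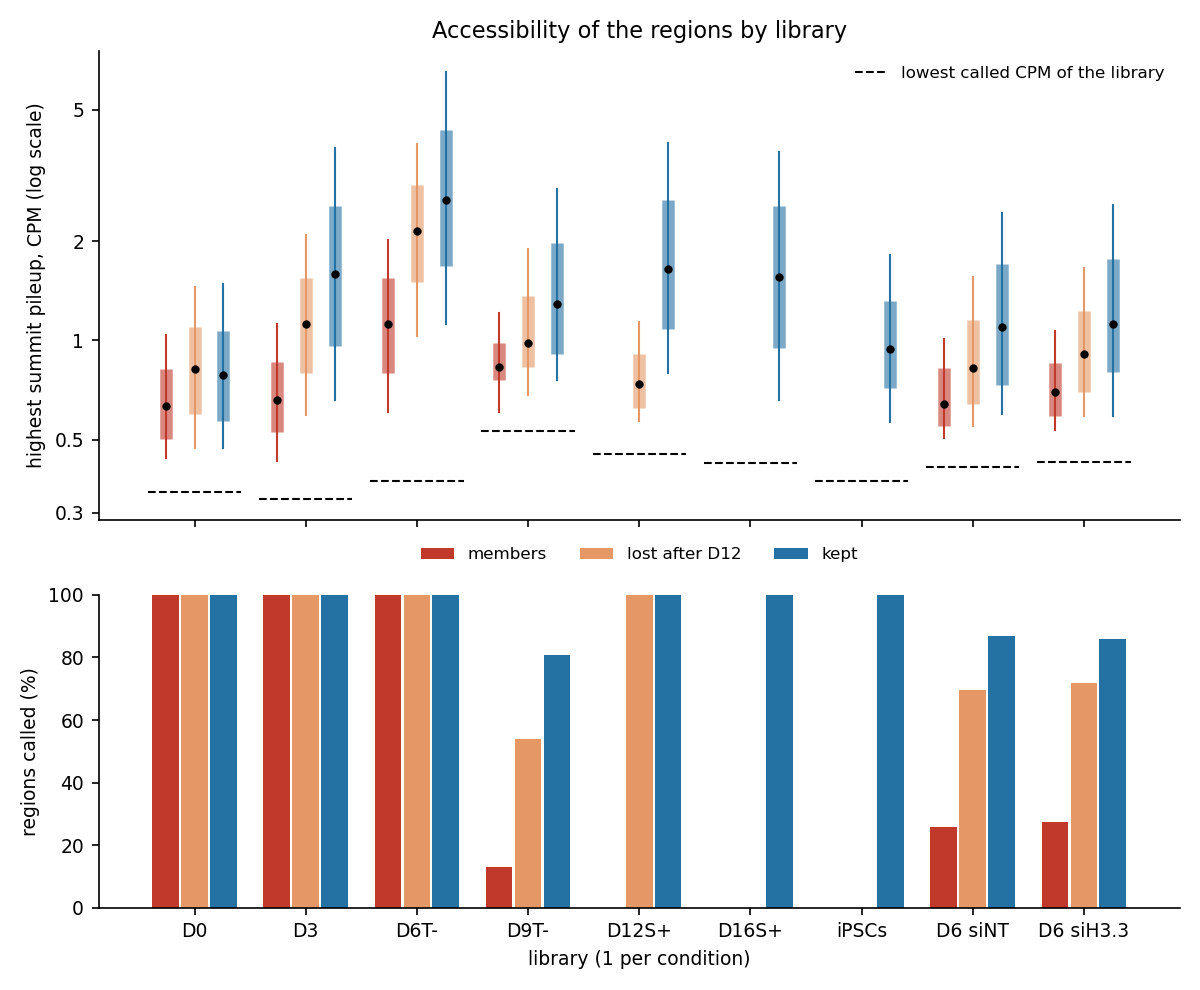
Level and calls of members, regions lost after D12 and kept regions in each library. Upper panel, highest summit pileup in CPM on a log scale for the regions called there (black point, median; thick bar, interquartile range; thin line, 10th to 90th percentile), with the lowest called CPM of each library as a dashed line. Lower panel, percent of the regions called. Members and kept regions lie close together at D0 (medians 0.631 and 0.788 CPM) and apart at D6T- (1.12 and 2.66 CPM). Calls at D0, D3, D6T- and in the late libraries are fixed by how the classes were chosen.

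From D0 to D3, the median ratio of the levels was 1.05 in members, 1.35 in regions lost after D12 and 2.05 in kept regions. Of the members, 746 (4.91%) were at least 2-fold higher at D3 than at D0, and 352 (2.32%) at least 2-fold lower. Over all 47482 regions called in both libraries, 23.4% were at least 2-fold higher and 1.03% at least 2-fold lower. From D0 to D6T- the median ratio was 1.69 in members (interquartile range 1.25 to 2.33), 2.51 in regions lost after D12 and 3.52 in kept regions. A rise of at least 2-fold was seen in 5567 members (36.6%), with 56.0% as the share over all 50782 regions called in both. These libraries took part in the choice of members, so nothing is read from the counts beyond the values.

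Of the 3 early libraries D6T- had the highest median, and 12454 members (82.0%) had their highest CPM there. The picture turned with the scale. Relative to the median of the kept regions in the same library, the members had medians of 0.800 (D0), 0.417 (D3) and 0.421 (D6T-), and 13771 of them (90.6%) were highest at D0. Whether the members opened further by D6T- or fell behind therefore depends on whether tags are scaled to the library total or to the kept regions. Cells that differ within a library and a partial opening in every cell cannot be told apart in these bulk samples.

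At the level of single members, the strongest was the region in the 1700007G11Rik intron, a gene of unknown role. Its level was 2.40 CPM (D0), 2.38 (D3), 3.74 (D6T-), 1.44 (D9T-), 0.826 in D6 siNT and 0.964 in D6 siH3.3. Its lowest early level was 5.24 times the highest late floor, and it stayed called through day 9. The intergenic member 403 kb from Pabpc4l had 2.08 CPM (D0), 2.18 (D3), 3.23 (D6T-) and 1.06 (D9T-), with 0.734 in D6 siNT and 0.589 in D6 siH3.3. These members were thus well above the floor early, and D9T- was lower than each of the 3 early libraries in both.

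The member 762 kb from Ntrk3, with AP-1 letters at 2 places, had 1.95 CPM (D0), 1.98 (D3) and 3.83 (D6T-), was not called at D9T-, and had 0.643 CPM in D6 siNT and 1.18 in D6 siH3.3. The member upstream of Mtap1s, a microtubule-associated protein gene, had 2.05 CPM (D0), 2.68 (D3) and 2.80 (D6T-), was not called at D9T- or in D6 siNT, and had 0.750 CPM in D6 siH3.3. Among the 10 members with the highest lowest early level, 7 were intergenic and 3 were called at D9T-. An AP-1 match was found in 6 of the 10.

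At Acta2, which marks contractile fibroblasts, the member spans chr19:34328662-34330457 around the transcript start. Its level was 1.10 CPM (D0), 0.827 (D3), 2.06 (D6T-), 0.984 (D9T-), 0.689 in D6 siNT and 1.12 in D6 siH3.3. The Actn1 intron member had 0.757 CPM (D0), 0.992 (D3), 2.29 (D6T-), 1.06 (D9T-), 0.918 in D6 siNT and 1.34 in D6 siH3.3. These members of contractile genes stayed called in every library up to day 9. The Itgb1 intron member had 0.568 CPM (D0), 0.926 (D3), 3.51 (D6T-), 1.06 (D9T-), 0.964 in D6 siNT and 1.07 in D6 siH3.3. At Postn, which encodes the matrix protein periostin, the member lies 2.39 kb from the transcript start and had 1.10 CPM (D0), 1.82 (D3) and 2.34 (D6T-), with no call at D9T- or in D6 siNT and 0.696 CPM in D6 siH3.3. All 4 had their highest level at D6T-, and of these only the Postn member was not called at D9T-.

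The edge of the group was set by few tags. A member just inside, chr1:43356320-43356696, had 16 tags at D0, 10 at D3 and 11 at D6T-, where 10 was the least that D3 could call. A member of the same kind, chr1:36173376-36173864, had 33 tags at D0, 10 at D3 and 34 at D6T-. Just outside, chr1:137583244-137584124 had 11 tags at D0, 16 at D3 and 24 at D6T-, and chr8:64052050-64052880 had 11, 24 and 15. Each of them was kept out by a single late call of 10 tags in iPSCs, the least that library could call. The number of members was 4722 when every time-course library contributed equally many of its strongest regions, and 8793 when 1 CPM floor held for all libraries.

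D9T- was the library of the time course that the choice left free. At this time, 1956 members (12.9%, 95% Wilson interval 12.3 to 13.4) were still called, with a median of 0.833 CPM. Of all 126731 regions called at D6T-, 25.4% were called at D9T-. Regions lost after D12 were called there in 54.0% and kept regions in 80.9%. D9T- had the fewest tags and the highest floor, and with equally many strongest regions per library the share of members was 39.8%. The share over all regions was not computed under that setting, so 39.8% cannot be set beside 25.4%.

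The share rose with the level at D6T-, and the order of the classes held in each bin of that level. Members under 0.8 CPM at D6T- were called at D9T- in 1.80%, those from 0.8 to 1.2 CPM in 4.95%, those from 1.2 to 2 CPM in 16.7% and those of 2 CPM and over in 50.9% (48.5 to 53.4). In the highest bin, 76.2% (74.9 to 77.5) of the regions lost after D12 and 96.5% (96.1 to 96.8) of the kept regions were called. This bin has no upper bound, so the classes were not matched for level in it. The 90th percentile at D6T- was 2.01 CPM over all members, 3.93 over regions lost after D12 and 6.50 over kept regions. Members called at D9T- had a median of 1.82 CPM at D6T-, and those not called had 1.03, whereas the medians at D0 were 0.662 and 0.631 CPM. The late libraries chose the classes and D9T- did not, but all share the same merged regions.

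**Figure D2:**
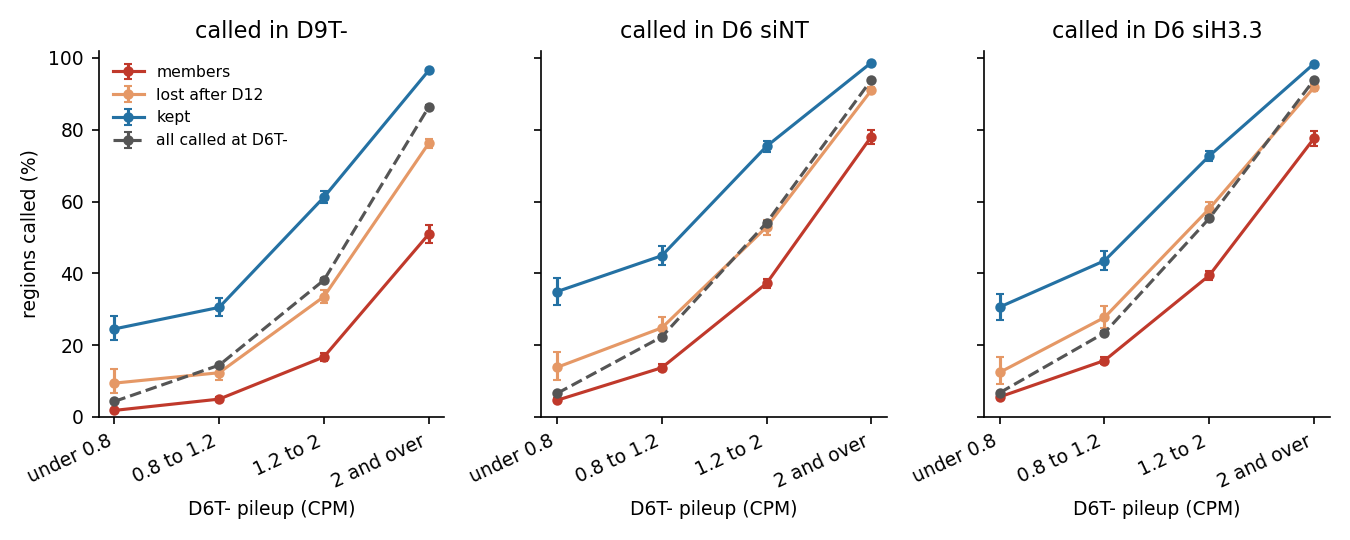
Percent of regions called in D9T- (left), D6 siNT (middle) and D6 siH3.3 (right) by the level of the region at D6T- in CPM, for members, regions lost after D12, kept regions and all regions called at D6T- (dashed). Points are shares and bars 95% Wilson intervals. In each panel the members lie lowest in every bin, and in the bin of 2 CPM and over they reach 50.9% at D9T- against 96.5% for kept regions. That bin has no upper bound, and the classes are not matched for level in it.

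The day 6 siRNA libraries took no part in the choice of members. In D6 siNT, 3939 members (25.9%, 25.2 to 26.6) were called, with a median of 0.643 CPM, and the share over all regions called at D6T- was 32.0%. Where called, their level in D6 siNT was 0.417 times that at D6T- (median), and over all regions the ratio was 0.427, so D6 siNT was lower than D6T- over all regions called in both. Of the members called at D9T-, 74.8% were also called in D6 siNT, and of the others 18.7%. With equal numbers of strongest regions, the share of members called in D6 siNT was 64.0%, and the share over all regions was not computed under that setting.

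H3.3, a histone variant placed outside of replication, was the target of the other siRNA. The study describes this knockdown as transient and confined to the early phase of reprogramming. How much H3.3 the day 6 cells held is not known from these files. In D6 siH3.3, 4165 members (27.4%, 26.7 to 28.1) were called, with a median of 0.696 CPM, and the share over all regions called at D6T- was 32.6%. Both siRNA libraries called 2618 members, D6 siNT alone 1321 and D6 siH3.3 alone 1547, while 9710 (63.9%) were called in neither, beside 60.8% of all regions called at D6T-. Of the members called in D6 siNT, 33.5% (32.1 to 35.0) were not called in D6 siH3.3, beside 21.4% over all regions. In the opposite direction, 37.1% (35.7 to 38.6) of the members called in D6 siH3.3 were not called in D6 siNT, beside 22.8% over all regions. In both directions the share of members lay above that over all regions. These shares were 11.5% and 14.3% in regions lost after D12, and 6.55% and 5.43% in kept regions. The median of all regions called was 0.780 CPM in D6 siNT (floor 0.413) and 0.803 in D6 siH3.3 (floor 0.429), above those of the members. Whether the lower level of members went with their higher shares was not tested. In members called in both, the ratio of D6 siH3.3 to D6 siNT was 1.08 (interquartile range 0.875 to 1.30), and 1.06 over all regions, with 44 members (1.68%) at least 2-fold higher and 11 (0.420%) at least 2-fold lower. Over all regions called in both, 1.16% were at least 2-fold higher and 0.439% lower. With equal numbers of strongest regions, 18.9% of the members called in D6 siNT were not called in D6 siH3.3. No share over all regions was computed under that setting, so 18.9% cannot be set beside 21.4%.

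Members lay in promoters less often than regions did in general. In all 1095 (7.21%, 6.81 to 7.63) had their midpoint in a promoter, taken as the 3 kb upstream of the start of any transcript, and 298 (1.96%) overlapped a transcript start. Genebodies held 7154 (47.1%) and intergenic sequence 6947 (45.7%), while 505 (3.32%) had their midpoint in an exon. Over all regions, 13.6% lay in promoters, 8.59% overlapped a transcript start, 47.6% lay in genebodies and 38.9% in intergenic sequence. Of the regions lost after D12, 8.43% lay in promoters. Of the kept regions, 43.5% lay in promoters and 64.5% overlapped a transcript start. When the promoter ran from 1 kb before to 100 bp after the transcript start, the share of members was 3.01%.

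The members were 31.4 kb (median) from the nearest protein-coding transcript start, 74.6% were over 10 kb away and 23.9% over 100 kb away. Over all regions 61.8% were over 10 kb away and 17.2% over 100 kb away, and 71.6% of the regions lost after D12 and 21.7% of the kept regions were over 10 kb away. The median width of members was 477 bp (206 to 2396), between the 365 bp of all regions and the 1132 bp of kept regions, and at D6T- 91.4% had a single summit. Their windows had a median GC content of 47.5% and a mean of 2.34 CpG per 200 bp, while all regions had 50.5% and 3.97 and kept regions 62.0% and 13.7. The nearest other member was 34.0 kb away (median). By chromosome, members were from 27.9% (chromosome 7) to 41.1% (chromosome 18) of the regions called at D0, D3 and D6T-.

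In sequence, AP-1 stood out. Within the 200 bp around the strongest summit, 6930 members (45.6%, 44.8 to 46.4) held the AP-1 letters TGACTCA. Windows of the same length 1 kb to the side held them in 3.61%. The share was 19.5% over all regions, 7.05% in kept regions (9.39% of those outside promoters) and 3.54% in the 3442 regions called in all 3 late and none of the 3 early libraries, named gained late. Members outside promoters had 46.0%. The letters were read from the genome and took no part in the choice of members.

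**Figure D3:**
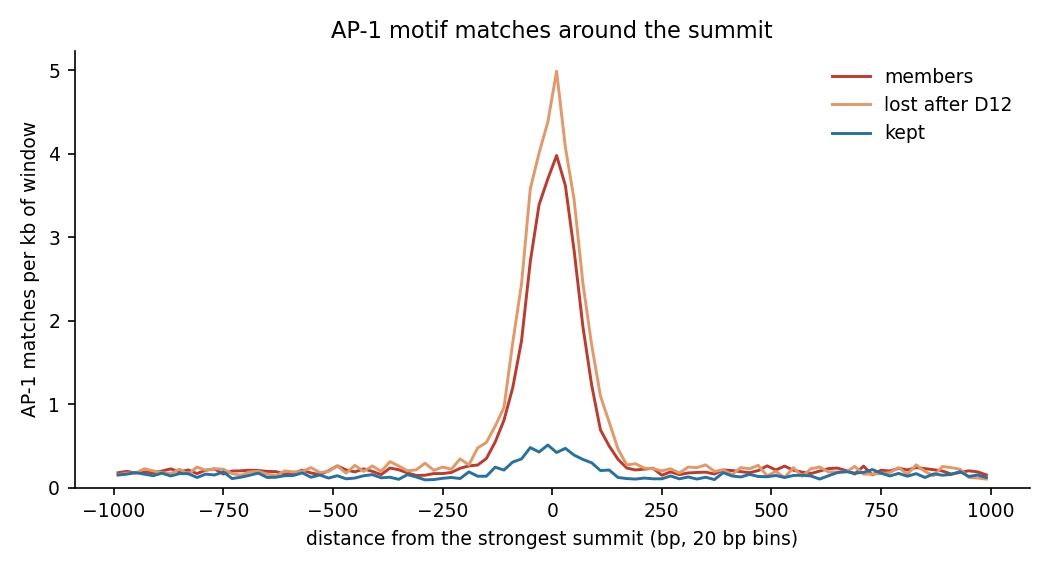
Matches to the AP-1 letters per kb of window against the distance from the strongest summit in bp (20 bp bins), for members, regions lost after D12 and kept regions. The matches of members peak at 3.98 per kb next to the summit and those of kept regions at 0.513, while further out the lines run together.

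The difference between classes was also present within bins of GC content. In windows with under 45% GC, 46.5% of members and 17.2% (13.1 to 22.1) of kept regions outside promoters had an AP-1 match. At 50 to 55% GC the shares were 45.7% and 15.3%, and at 55% GC and over 38.8% and 6.54%. Over all regions the share ran from 30.0% under 45% GC to 7.55% at 55% and over.

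The late fate of a region went with its AP-1 share. Regions lost after D12 had the highest, 53.2% (52.1 to 54.3), above that of the members. Regions called late at D16S+ alone had 14.6%, in iPSCs alone 22.1%, at D12S+ and D16S+ 26.2%, and at D12S+ and in iPSCs 25.7%. The AP-1 share of the members thus lay above that of each class called in D16S+ or iPSCs and below that of the class called at D12S+ alone.

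**Figure D4:**
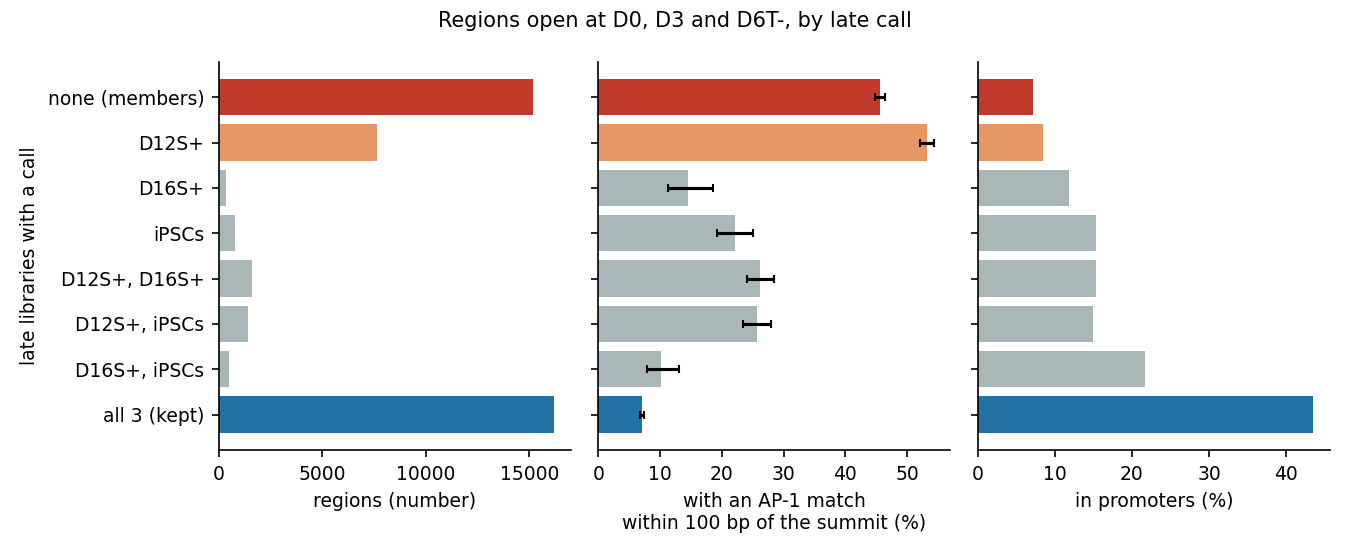
The 43687 regions called at D0, D3 and D6T-, split by the late libraries that called them. Bars give the number of regions, the percent with an AP-1 match within 100 bp of the summit (with 95% Wilson intervals) and the percent in promoters. Members (no late call) and regions called at D12S+ alone have 45.6% and 53.2% with AP-1, and kept regions 7.05%.

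Within the members, AP-1 matches went with the level. Members without a match (8266) had a median of 0.982 CPM at D6T-, those with 1 match (6005) 1.22 and those with 2 or more (925) 1.54. Their shares called at D9T- were 10.1% (9.48 to 10.8), 15.2% (14.3 to 16.1) and 22.6%, and those called in D6 siNT 20.9%, 30.0% and 44.5%. Over all regions called at D6T-, 25.4% were called at D9T- and 32.0% in D6 siNT. Of the members called in D6 siNT, 37.7% without a match, 32.2% with 1 match and 22.1% with 2 or more were not called in D6 siH3.3. Over all regions called in D6 siNT this share was 21.4%. The opposite direction was not split by matches, and whether the knockdown acted differently at AP-1 matches was not tested. At D0 the medians were 0.599, 0.631 and 0.725 CPM. Among the weakest 3408 members by lowest early level, the AP-1 share was 39.8% (38.2 to 41.5), and among the strongest 3827 it was 51.9% (50.3 to 53.4), both above the 3.61% of the flanks.

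Other fibroblast factors gave smaller differences. The TEAD letters GGAATG were in 24.8% of the members, in 10.9% of the flanks and in 15.2% of all regions. The RUNX letters TGTGGT were in 25.5%, 15.3% and 18.1%. The E-box CAGATG, which TWIST proteins bind, was in 21.6%, with 15.7% in flanks and 18.9% in all regions. The NFI letters TTGGCA were in 14.6% (flanks 10.1%) and the C/EBP letters TTGCNNAA in 10.2% (flanks 8.17%). The RUNX letters and the KLF letters GGGTGTGG can share bases. For each of these 5 motifs, the members had a higher share at the summit than in the flanks. The same held for regions lost after D12, with 23.4% (TEAD), 23.8% (RUNX), 24.7% (CAGATG), 13.9% (NFI) and 11.4% (C/EBP) at the summit.

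The E-box CAGGTG, which SNAI and ZEB repressors bind, ran the other way. It was in 5.58% (5.23 to 5.96) of the members and in 13.2% of their flanks. Over all regions it was in 14.7%, in kept regions in 11.2%, and in regions gained late in 30.1% (28.6 to 31.6). This E-box was 1 of 19 motifs searched, and the summit held it less often than the flank in members, in regions lost after D12 and in kept regions.

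The Oct4 octamer, the SOX letters, the GC box and the CTCF core were less frequent in members than over all regions. The octamer ATGCAAAT, bound by Oct4, was in 1.09% of the members (flanks 1.19%), 1.68% of all regions and 4.45% of the regions gained late. The SOX letters ACAATGG were in 3.32% of the members (flanks 3.14%), 4.09% of all regions and 9.65% of the regions gained late. The GC box GGGCGG was in 3.40% of the members, 10.7% of all regions and 48.5% of the kept regions, and the CTCF core AGNNGGCGC in 0.671%, 3.36% and 12.3%. The remaining motifs, searched on both strands like the others, were in 22.5% (CCAAT of NF-Y, flanks 25.1%, all regions 22.6%), 8.34% (AGATAA of GATA factors, 11.8% and 7.31%), 2.43% (KLF, 1.62% and 3.71%) and 2.38% (CCGGAA of ETS factors, 1.71% and 4.62%) of the members. TTCCNGGAA of STAT factors was in 1.09% (all regions 0.785%), GGGANTTCC of NF-kB in 0.855% (0.958%), TGACGTCA of CREB factors in 0.507% (0.521%) and GTCTAGAC of SMAD factors in 0.276% (0.207%). A match is a run of letters and not a measured binding site.

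Members touched 4399 of 21418 protein-coding genes (20.5%), counted from 3 kb upstream of the transcript start to the end of the gene. Of these genes 838 had 3 or more members and 19 had 10 or more. Genes with a member were long, with a median of 65.1 kb against 15.5 kb over all genes. Most of these genes had a called promoter before and after the members were lost. A promoter region was called at 3576 of these genes (81.3%) at D0, 2983 (67.8%) at D9T-, 3608 (82.0%) at D12S+ and 3638 (82.7%, 81.6 to 83.8) in iPSCs. Over all protein-coding genes the shares were 61.2%, 53.1%, 64.9% and 66.3%. Of the genes with a promoter region at D0, 89.7% (88.7 to 90.7) had 1 in iPSCs, beside 92.8% over all genes, 95.1% for genes with 3 or more members and 97.1% (96.7 to 97.4) for genes that had early regions but no member. A region gained late lay at 602 of the genes with a member (13.7%), beside 6.26% of all genes, which are shorter.

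The protein-coding genes with most members were Gm20388 with 70 and Fgfr2 with 28, but their annotated spans of 4435 kb and 3009 kb run over many neighbouring genes. Next came Pde4d, a cAMP phosphodiesterase, with 18, Gpc6, a glypican, with 13, Odz2, a teneurin, with 13, and Lpp, a focal adhesion protein, with 12. Sik3, a kinase, and Frmd4a each had 11. At Gpc6, 13 of 17 regions called at D0, D3 and D6T- were members and 1 was kept. At Lpp 12 of 15 were members. In each of the genes named here a promoter region was still called in all 3 late libraries.

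At fibroblast genes, members were frequent where the genes encode matrix and surface proteins. Of the regions called at D0, D3 and D6T- at 33 collagen and matrix genes, 49 of 105 (46.7%, 37.4 to 56.2) were members, beside 7811 of 27725 (28.2%) over all protein-coding genes. Col4a1, a basement membrane collagen, had 7, Fbn1, the fibrillin of elastic microfibrils, 6, and Loxl2, which cross-links collagen, 4. The strongest Fbn1 member had 0.725 CPM (D0), 1.92 (D3), 3.32 (D6T-), 0.757 (D9T-), 1.29 in D6 siNT and 1.12 in D6 siH3.3. At 18 surface and adhesion genes, 30 of 67 (44.8%, 33.5 to 56.6) were members, with 5 each at Ncam1, a neural and mesenchymal adhesion molecule, and Itgb5, and 4 at Itgb3, both integrin subunits. Genes of both lists were longer (median 43.5 kb and 67.8 kb) than all protein-coding genes (15.5 kb), and no list was matched for length. The intervals count several regions of 1 gene as separate.

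Growth factor receptor and MAPK genes had 20 of 53 (37.7%), with 5 at Igf1r and 4 at Met, the receptor of hepatocyte growth factor. All 4 regions called at Met in the 3 early libraries were members. Genes of actin and contraction had 22 of 66 (33.3%), with 4 at Cald1 and 4 at Mylk, the myosin light chain kinase. The TGF-beta genes had 17 of 57 (29.8%), with 5 at Smad3 and 3 at Ltbp1, and the mesenchymal transcription factors 17 of 58 (29.3%), with 6 at Runx1. The intervals of these 4 lists included the share over all genes.

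The remaining lists hold the factors and the genes of other cells. Genes of TEAD, YAP and their targets had 9 of 43 (20.9%, 11.4 to 35.2), with 3 at Wwtr1, which encodes TAZ, and AP-1 subunits had 4 of 22 (18.2%, 7.31 to 38.5), with 2 at Fosl1, and both intervals included the 28.2% over all genes. At AP-1 subunit genes 14 of 22 (63.6%, 43.0 to 80.3) were kept, and at collagen and matrix genes 27 of 105 (25.7%, 18.3 to 34.8), with 47.2% over all genes. At epithelial genes 1 of 11 early regions was a member (9.09%, 1.62 to 37.7, at Ocln, an occludin), at pluripotency genes 5 of 22 (22.7%, 10.1 to 43.4, with 4 at Esrrb and 1 at Prdm14) and at genes of other cell types 7 of 18 (38.9%, 20.3 to 61.4). These intervals too included the share over all genes. Esrrb, a factor of naive pluripotency, had 3 regions gained late beside its 4 members.

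**Figure D5:**
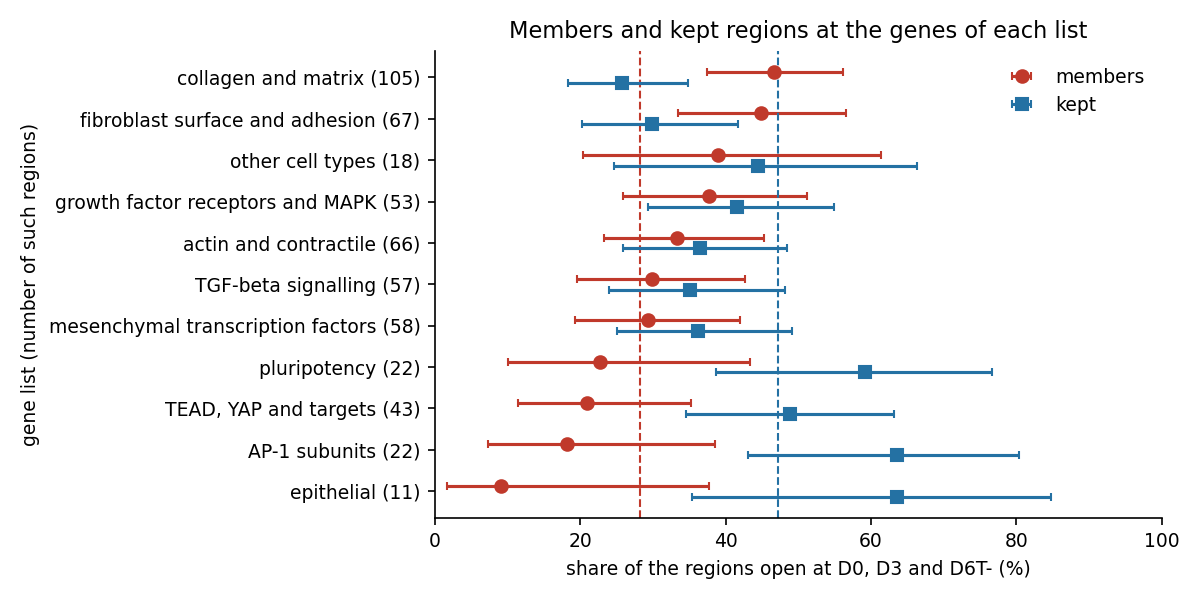
For each gene list, the percent of the regions called at D0, D3 and D6T- that were members (circles) or kept (squares), with 95% Wilson intervals and the number of regions in brackets. Dashed lines give the shares over all protein-coding genes (28.2% and 47.2%). Collagen and matrix genes and surface and adhesion genes lie highest in members, with 46.7% and 44.8%.

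Of 83 gene entries of the 8 fibroblast lists with a member, 76 had a promoter region at D0 and 67 of these had 1 in iPSCs. The share with 1 in iPSCs was 89.7% over genes with a member and 92.8% over all genes. In 6 no late library called the promoter, namely Col6a3, Postn, Twist2, Acta2, Fgf7 and the shorter of 2 Runx2 entries, named after their values were seen. The longer Runx2 entry had a promoter region called at D12S+, D16S+ and in iPSCs. No such count over all genes is given here, so the 6 cannot be set beside a general share. Among the marker genes fixed for the check of the label, 6 of 10 fibroblast markers had a member (Col1a1, Col1a2, Postn, Prrx1, Twist2 and Pdgfrb), and Thy1, Col3a1, Twist1 and Snai2 had none. Of the endothelial markers, 3 of 4 had members (Cdh5 and Pecam1 with 3 each, Kdr with 1), and 1 of 7 annotated pluripotent markers had (Esrrb). Over all protein-coding genes, 20.5% had a member. Of the regions called at D0, D3 and D6T-, 9 of 16 at fibroblast markers were members. The counts were 7 of 13 at endothelial and 4 of 8 at pluripotent markers. Markers of blood, muscle and neural cells had no member, but they held only 1, 0 and 4 regions called at D0, D3 and D6T-, so few could have been members. Some members thus lie at genes that mark fibroblasts and some at genes that mark endothelial cells. The part that other cells of the culture had in the calls was not tested.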

How the data were processed

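Per the study's methods, the authors mapped reads to mm9, removed duplicates and called peaks with MACS2 without local background. Per the file headers, this was version 2.1.0.20151222 on 51 bp tags extended to 200 bp, with a q-value cutoff of 0.05 and no control. The deposited pileup is a signal (tags over a summit, not scaled for depth), the deposited fold enrichment is a ratio to the genome-wide background, and the deposited score is the −log10 q-value. From there, the peaks of a library were merged and pileups were divided by the library's tags to give CPM. Genes came from GENCODE vM1. The strongest summit of the called early libraries centred the motif windows of regions with an early call. Regions without an early call, such as those gained late, have no early summit, so their windows were centred otherwise. Symbols with 2 annotation entries (Runx2, Fgfr1) count as 2 gene entries.

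The group, its members and the gene and motif lists were chosen with earlier results of these data known. Genes named are the 10 with most members (2 of them are not reported here) and, per list, those with most members. Regions named are the 10 with the highest lowest CPM over D0, D3 and D6T- and those at the edge. The strongest members at Acta2, Actn1, Itgb1, Postn and Fbn1 were named after their values were seen. Windows printed come from these and from the strongest member of list genes, where no exon overlapped. Alternatives were a stricter score, equal numbers of regions, 1 CPM floor, another overlap, promoter, motif window and level. Functions were tested on simulated data, where 15 of 15 checks passed. Python 3.11.15 was used with pysam 0.24.0, matplotlib 3.10.9, scipy 1.17.1, pandas 2.3.3 and numpy 2.4.6. Intervals cover the sampling of regions only.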

Additional observations from a re-analysis of the deposited data

How the results depend on the processing

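The 8 main results were recomputed under the alternatives, which gave 42 values. Of these, 13 stayed within the interval of the reported value (or within 1.5 times the number of members), 28 moved and 1 turned. That value, from an alternative chosen after seeing the data, was 0.501 for the D6T- over D0 ratio with CPM set over the median of kept regions in each library. When only regions at or above the median score of their library counted, 12.3% of members were called at D9T-, 23.9% in D6 siNT, 29.7% of the latter were not called in D6 siH3.3, 51.0% had AP-1, the D6T- over D0 ratio was 1.98 and 73.6% of member genes had a promoter region in iPSCs. This set had 11855 members and held 46.5% of the reported ones. With the same number of strongest regions per library these values were 39.8%, 64.0%, 18.9%, 58.4%, 2.22 and 77.0%, with 4722 members, of which 59.5% overlapped a reported member and which held 18.5% of the reported members. With 1 CPM floor they were 18.1%, 30.0%, 29.7%, 48.7%, 1.72 and 77.6%, with 8793 members, 53.2% of the reported ones among them, and 6.47% in promoters. The promoter share was 3.01% with 1 kb upstream to 100 bp downstream and 5.53% with protein-coding genes only. The AP-1 share was 31.2% in 100 bp, 51.3% in 400 bp and 43.7% at the strongest D0 summit. The ratio was 1.52 from fold enrichment and 1.72 from summed pileup. Presence by an overlap of 50% of the shorter region moved none of the 8. The number of members and their calls at D9T- changed over 3-fold with equal numbers of strongest regions, and the cause was not tested. Shares over all regions were not recomputed under these alternatives. No paired analysis was possible because each condition had 1 library.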

Other observations

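On chromosome X, which was outside the choice of members, the same rule gave 211 of the 633 regions called at D0, D3 and D6T- (33.3%), close to the 34.8% on chromosomes 1 to 19.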
